A study of Mus musculus with 17 samples.

Results

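The genes described here hold meiotic telomeres to the nuclear envelope or cover telomere ends, and were followed in sorted male germ cells of WT and Nat10-SKO mice. They are Sun1, Sun2, Ccdc155 (KASH5), Ccdc79 (TERB1), Terf1 (TRF1), Terf2 (TRF2), Terf2ip (RAP1), Pot1a, Acd (TPP1) and Tinf2 (TIN2). They were chosen by name, and all 10 were found among the 23282 genes of the deposited table. The 17 RNA-seq libraries cover 3 sorted stages, namely spermatogonia (SPG), spermatocytes at pre-leptotene (PreL), and spermatocytes at leptotene or zygotene (LZ), with 3 libraries per group in all groups except WT LZ, which had 2. Nat10 encodes the acetyltransferase that writes N4-acetylcytidine on RNA. In SKO mice, which carry 1 floxed and 1 deleted Nat10 allele, a Stra8-GFPCre knock-in removes exons 4 and 5 of Nat10 from germ cells as they prepare for meiosis, so any somatic cell in a sort keeps the floxed allele. The WT mice are labelled wildtype, both genotypes are on the C57BL/6 background (C57BL/6J in the study's methods), and the age of the mice used for sequencing was not given in the sources used here. The libraries are separate samples by their labels, and the study calls them biological replicates, but how many animals went into each was not given in the sources used here, so the p-values measure the spread between libraries.

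At the onset of meiosis, telomeres attach to the inner nuclear membrane and are dragged along it, which helps homologous chromosomes find each other. TERB1 binds TRF1 on the telomere and, with TERB2 and MAJIN, anchors it in the inner membrane. SUN1, and to a lesser degree SUN2, span that membrane and bind KASH5 in the outer membrane, and KASH5 recruits the dynein motor in the cytoplasm. Such SUN and KASH pairs are called LINC complexes. Shelterin is the protein cap of telomeres: TRF1 and TRF2 bind double-stranded repeats, RAP1 rides on TRF2, TIN2 bridges TRF1 and TRF2, and TPP1 carries POT1a to the single-stranded end.

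The libraries held 5812380 to 13820953 reads, the shallowest being those of SKO LZ (5812380 to 7609420). Levels are given below as RPM, reads scaled to the same library total, and as RPM per kilobase of merged exons (RPKM) where genes are compared. Nat10 was at 28.1 and 28.6 RPM in WT LZ and between 6.83 and 8.81 RPM in SKO LZ, and it fell in SKO PreL (log2 fold change -1.29, adjusted p = 0.00591) and SKO LZ (-1.47, adjusted p = 0.00469); in SPG its log2 fold change was -0.87, short of the fold threshold. Early meiotic markers were present in every LZ library (8 genes, summed RPM of 3866 to 4325 in WT and 2948 to 4458 in SKO). Late spermatocyte markers (7 genes) summed to 2866 and 5335 RPM in WT LZ and to between 12.6 and 17.0 RPM in SKO LZ, where Pgk2 and Adam3 had at most 3 reads in each library. Spermatid markers (7 genes) summed to 570 to 976 RPM in WT LZ and to 6.93 to 9.12 RPM in SKO LZ, with Acrv1 at 0 reads. Somatic markers also moved: Sertoli cell genes (6 of 7 listed) were highest in WT LZ replicate 2 (1154 RPM, against 228 RPM in replicate 3) and reached 642 and 836 RPM in SKO PreL replicates 1 and 2, against 56.2 RPM in replicate 3.

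On GRCm38 (mm10), in GENCODE annotation, the LINC and attachment genes are Sun1 (chr5:139200637-139249840, + strand), Sun2 (chr15:79724070-79742536, - strand), Ccdc155 (chr7:45183624-45204892, - strand) and Ccdc79 (chr8:104446719-104509910, - strand). The shelterin genes are Terf1 (chr1:15805646-15844052, + strand), Terf2 (chr8:107069400-107096547, - strand), Terf2ip (chr8:112011398-112020528, + strand), Pot1a (chr6:25743737-25809246, - strand), Acd (chr8:105695860-105701102, - strand) and Tinf2 (chr14:55674689-55681820, - strand). All are protein-coding, and reads were counted over their exons. Exons of Sun1, Sun2, Terf2ip, Acd and Tinf2 overlap a gene on the opposite strand, and whether counting used strand was not given in the sources used here. Of the overlapping genes listed in the table, Gm6793, opposite Terf2ip, had 0 reads in every library, Carmil2 (listed as Rltpr), opposite Acd, had at most 5, and Gmpr2, opposite Tinf2, had 36 to 367. The 50-base stretches shared with any other gene's transcripts made up 23.1% of those of Acd and 26.5% of those of Tinf2, nearly all with these opposite genes, and between 0% and 3.49% for the other members.

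The promoter sequences of the 5 members that passed the test in LZ are shown because 3 of these genes were lower and 2 higher in SKO. Each is the 250 bases before the RefSeq start site (GRCm38.p6), written 5′ to 3′ on the gene's strand. Capitals mark matches, on either strand, to the E-box CACGTG, the CRE TGACGTCA, the CCTCAG element known for STRA8 and MEIOSIN, and the E2F element GGCGGGA.
Ccdc155 (chr7:45204893-45205142, - strand): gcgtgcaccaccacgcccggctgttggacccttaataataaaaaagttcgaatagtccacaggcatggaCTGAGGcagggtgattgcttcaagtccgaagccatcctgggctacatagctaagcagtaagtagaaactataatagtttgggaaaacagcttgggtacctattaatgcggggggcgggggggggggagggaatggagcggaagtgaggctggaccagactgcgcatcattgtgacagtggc
Ccdc79 (chr8:104509888-104510137, - strand): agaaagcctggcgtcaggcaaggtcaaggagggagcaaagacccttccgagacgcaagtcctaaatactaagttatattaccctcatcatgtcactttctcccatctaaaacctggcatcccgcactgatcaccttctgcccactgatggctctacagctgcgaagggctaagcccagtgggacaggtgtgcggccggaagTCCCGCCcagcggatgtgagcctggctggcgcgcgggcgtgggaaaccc
Acd (chr8:105701229-105701478, - strand): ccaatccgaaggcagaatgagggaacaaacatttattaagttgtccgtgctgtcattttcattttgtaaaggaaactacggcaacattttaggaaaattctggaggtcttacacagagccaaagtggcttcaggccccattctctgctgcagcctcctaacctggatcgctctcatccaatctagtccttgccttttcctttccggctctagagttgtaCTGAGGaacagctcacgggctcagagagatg
Terf2ip (chr8:112011109-112011358, + strand): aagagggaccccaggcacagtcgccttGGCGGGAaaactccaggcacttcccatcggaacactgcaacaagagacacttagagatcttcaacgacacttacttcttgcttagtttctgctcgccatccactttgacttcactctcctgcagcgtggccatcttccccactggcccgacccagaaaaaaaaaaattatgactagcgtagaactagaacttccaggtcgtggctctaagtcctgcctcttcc
Sun2 (chr15:79742537-79742786, - strand): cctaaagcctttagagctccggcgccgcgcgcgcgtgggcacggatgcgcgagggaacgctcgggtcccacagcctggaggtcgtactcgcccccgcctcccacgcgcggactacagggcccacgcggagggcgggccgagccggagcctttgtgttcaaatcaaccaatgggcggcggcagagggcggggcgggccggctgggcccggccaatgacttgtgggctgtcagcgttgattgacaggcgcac
Ccdc155 and Acd each held a CCTCAG match, at 181 and 31 bases before the start, and 22.3% of all 32851 promoter windows of this length held that element. Ccdc79 and Terf2ip each held an E2F match, at 49 and 223 bases before the start, against 9.75% of all windows. Sun2 held none of the 4 elements. An E-box was found in none of the 9 members with a window, and in 6.02% of all windows. Of the other members with a window, Sun1 held 2 E2F matches in its upstream window, Tinf2 held a CRE at 56 bases before the start (1.55% of all windows), and Pot1a and Terf2 held none.

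In WT cells the TERB1 gene rose from SPG to PreL. Ccdc79 was at 21.5, 14.7 and 25.2 RPM in WT SPG and at 74.4, 52.9 and 76.8 RPM in WT PreL. All PreL libraries lay above all SPG libraries, and Ccdc79 rose 3.35-fold (log2 fold change 1.75, SE 0.23, adjusted p = 0.00425). It was the only member of the 10 called between these stages, beside 3.75% of all genes tested; by adjusted p alone 2 members passed, beside 7.28%. Ccdc155 went from 3.37, 3.37 and 1.08 RPM to 11.0, 8.23 and 6.43 RPM over the same step (log2 fold change 1.59, SE 0.44, adjusted p = 0.0522), which missed the threshold. Terf1, whose protein TERB1 binds, had a log2 fold change of 0.78 (adjusted p = 0.0243), under the fold threshold.

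From PreL to LZ in WT, the KASH5 gene was the member that rose. Ccdc155 reached 39.0 and 41.9 RPM in WT LZ (log2 fold change 2.06, SE 0.34, adjusted p = 0.00334), above every other library of the series. The RAP1 gene went the other way: Terf2ip was at 166, 278 and 257 RPM in WT PreL and at 79.4 and 103 RPM in WT LZ, and it fell by 1.49 on the log2 scale (SE 0.31, adjusted p = 0.0074). These 2 members of 10 were called, beside 26.6% of all genes (7.8% lower and 18.8% higher). Without WT LZ replicate 2, the library rich in Sertoli cell RNA, the log2 fold change of Terf2ip was -1.14 with an adjusted p of 0.0716; that fit leaves a lone WT LZ library, which is assumed to vary like the PreL group. Tinf2 (log2 fold change -0.95, adjusted p = 0.00885) and Sun1 (-0.60, adjusted p = 0.0392) stayed under the fold threshold; by adjusted p alone 4 members passed, beside 34.7% of all genes. These values are relative to the other genes of a library. On the ERCC-calibrated scale, where the median of all genes moved from 0.13 to 1.86, 7 members were called higher in WT LZ, none was called lower, and the sign turned for Terf2ip (0.34), Tinf2 (0.88) and Sun1 (1.23).

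Per length, Terf2ip was the most abundant member in WT SPG and WT PreL, with 29.8 ± 5.16 and 47.1 ± 12.0 RPKM (SD, n = 3 libraries each). Its libraries overlapped those of the next gene, Tinf2, in both groups. In WT LZ, 7 members lay close together, from Ccdc79 at 25.4 RPKM to Sun1 at 16.6 RPKM, and only Terf1 and Acd among neighbours in that order did not overlap. Terf2 (6.02 RPKM), Pot1a (3.08 RPKM) and Sun2 (0.858 RPKM) followed, each apart from the next. KASH5 RNA was level with that of its partner in WT LZ: the Ccdc155 to Sun1 ratio in RPKM was 0.966 and 1.10, after 0.121 to 0.188 in WT PreL and 0.0232 to 0.0873 in WT SPG.

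**Figure D1:**
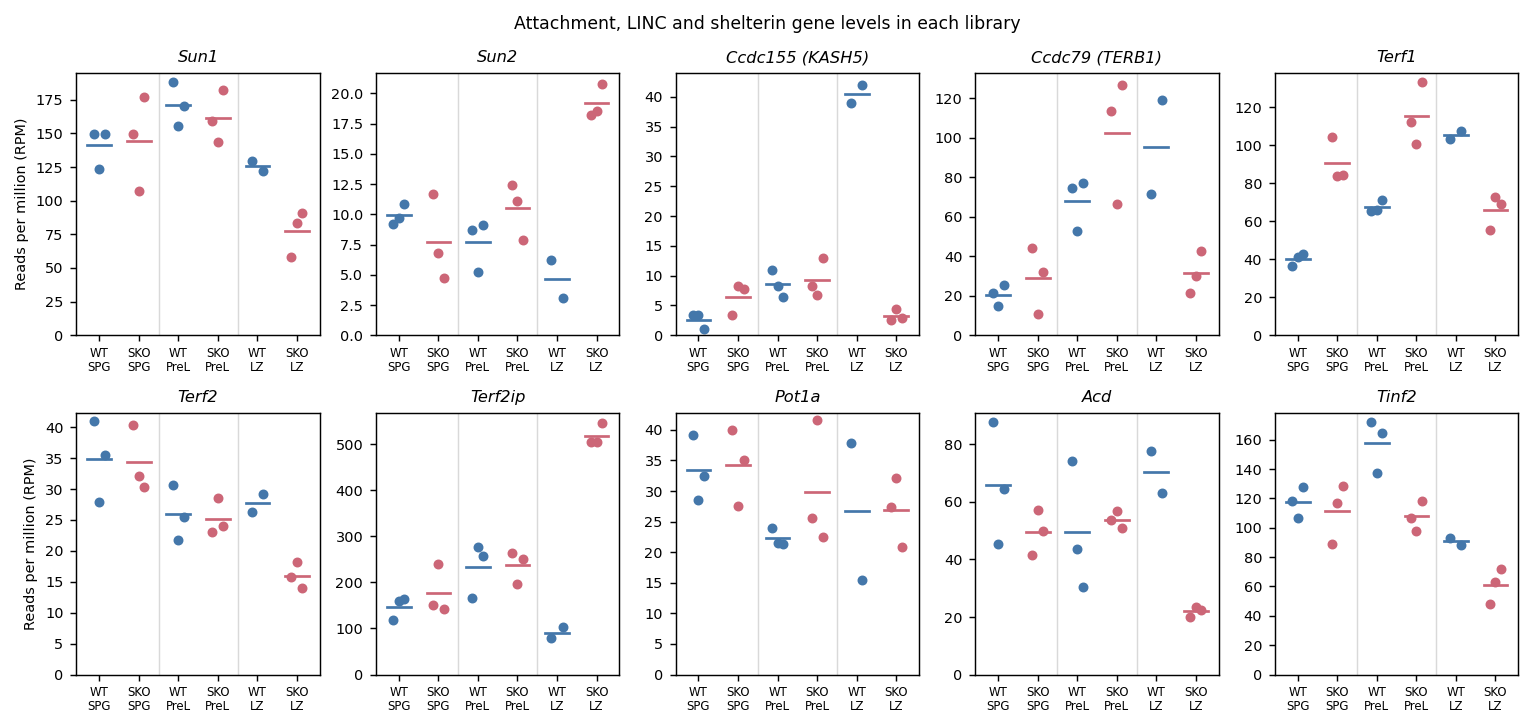
Each panel plots the level of 1 member in RPM (linear axis from 0) for each of the 17 libraries by genotype and stage; points are libraries, blue for WT and red for SKO, and horizontal lines are group means. Ccdc155 stood at 39.0 and 41.9 RPM in WT LZ against 2.58 to 4.34 RPM in SKO LZ, and Terf2ip at 79.4 and 103 RPM against 505 to 546 RPM.

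In SPG, TRF1 RNA was higher in SKO than in WT. Terf1 was at 36.3, 41.0 and 43.0 RPM in WT SPG and at 104, 83.8 and 84.6 RPM in SKO SPG. No SKO library overlapped a WT library, and Terf1 rose 2.22-fold (log2 fold change 1.15, SE 0.18, adjusted p = 0.00132). It was the only member called of 10, beside 6.03% of all genes tested (3.95% higher in SKO), and the only one with non-overlapping genotypes, where 15.5% of all genes had every SKO library higher. Ccdc155 had a log2 fold change of 1.10 with a wide interval (-0.02 to 2.22, adjusted p = 0.2), since WT SPG held only 13 to 44 reads of it. The other 8 members lay between -0.43 and 0.29 on the log2 scale. Leydig, peritubular myoid and macrophage markers were also higher in SKO SPG (60.4 to 221, 269 to 482 and 31.8 to 63.6 RPM, against at most 15.5, 43.7 and 7.97 RPM in WT). Early meiotic markers were higher too (3417 to 3648 RPM in SKO SPG, 2253 to 2498 RPM in WT SPG), as were spermatogonial markers (1009 to 1050 against 807 to 864 RPM). Spermatid markers were lower (3.64 to 8.14 RPM in SKO SPG, 98.6 to 295 RPM in WT SPG). The part of all these markers in the Terf1 difference was not tested. On the ERCC-calibrated scale the log2 fold change of Terf1 was 0.88, under the fold threshold (adjusted p = 0.0163).

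In PreL, none of the 10 members was called by limma, beside 11.2% of all genes tested, and edgeR and DESeq2 called none either. Unadjusted p-values were under 0.05 for 2 members, beside 33.7% of all genes, and the same 2 passed by adjusted p alone, beside 17.9% of all genes. Terf1 was at 65.7, 66.0 and 71.2 RPM in WT and at 113, 101 and 133 RPM in SKO (log2 fold change 0.69, SE 0.17, adjusted p = 0.022). Tinf2, whose protein bridges the shelterin subunits, was at 172, 137 and 165 RPM in WT and at 107, 98.0 and 118 RPM in SKO (log2 fold change -0.61, SE 0.15, adjusted p = 0.0241). Both genes separated the genotypes in every library, as did 19.9% of all genes upwards and 17.1% downwards, but stayed under the fold threshold. Ccdc79 and Ccdc155 overlapped WT in SKO PreL: Ccdc79 was at 113, 66.2 and 127 RPM (log2 fold change 0.48, adjusted p = 0.247), and Ccdc155 at 8.28, 6.74 and 13.0 RPM (0.04, 95% interval -0.72 to 0.80). Of the genes of the anchor partners, Majin overlapped too (log2 fold change 0.04), but Terb2 did not. Terb2 was at 104, 90.3 and 138 RPM in SKO PreL and at 71.9, 59.3 and 53.5 RPM in WT PreL. Its log2 fold change was 0.76 (adjusted p = 0.029), under the fold threshold. Rescaling matters here, because on the ERCC-calibrated scale the median of all genes moved from 0.04 to 0.73 and Sun2, Ccdc79, Terf1 and Pot1a were called higher, while Tinf2 turned sign (0.11, adjusted p = 0.577). The PreL sorts also differed in markers. Early meiotic markers summed to 5159 to 7156 RPM in SKO and 3492 to 4286 RPM in WT. Late spermatocyte markers (5.42 to 10.1 against 239 to 907 RPM) and spermatid markers (8.35 to 13.05 against 537.5 to 917 RPM) were lower in SKO. Leydig markers were higher in SKO (39.9 to 449 against 6.255 to 17.4 RPM). Sertoli, peritubular myoid and macrophage markers overlapped between the genotypes. The part of these markers in the PreL values was not tested.

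In LZ the members split: KASH5, TERB1 and TPP1 RNA fell in SKO, RAP1 and SUN2 RNA rose, and the other 5 members were not called. The 5 called members stand beside 39.1% of all genes tested, 25.8% of them lower and 13.4% higher in SKO, so the count is near the background. The median log2 fold change was -0.33 for the members and -0.13 for all genes tested. The same 3 lower and 2 higher calls were made on the ERCC-calibrated scale. In RPM, 7 members had every SKO LZ library below both WT libraries, as did 50% of all genes, and 2 had every SKO library above, as did 16.9%. The LZ fold changes are on values rescaled by median-of-ratios factors, not ratios of the RPM printed beside them. That rescaling sets SKO LZ higher against WT LZ than RPM does. In sorted bulk RNA, fewer cells of a type and less RNA per cell cannot be told apart. The late spermatocyte and spermatid markers given above differed between the same libraries. So did Leydig, peritubular myoid and macrophage markers, at 19.98 to 56.7, 15.9 to 17.9 and 0.651 to 2.49 RPM in WT LZ against 77.9 to 227, 37.7 to 66.4 and 4.82 to 16.2 RPM in SKO LZ. The part of these markers in the LZ differences was not tested.

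**Figure D2:**
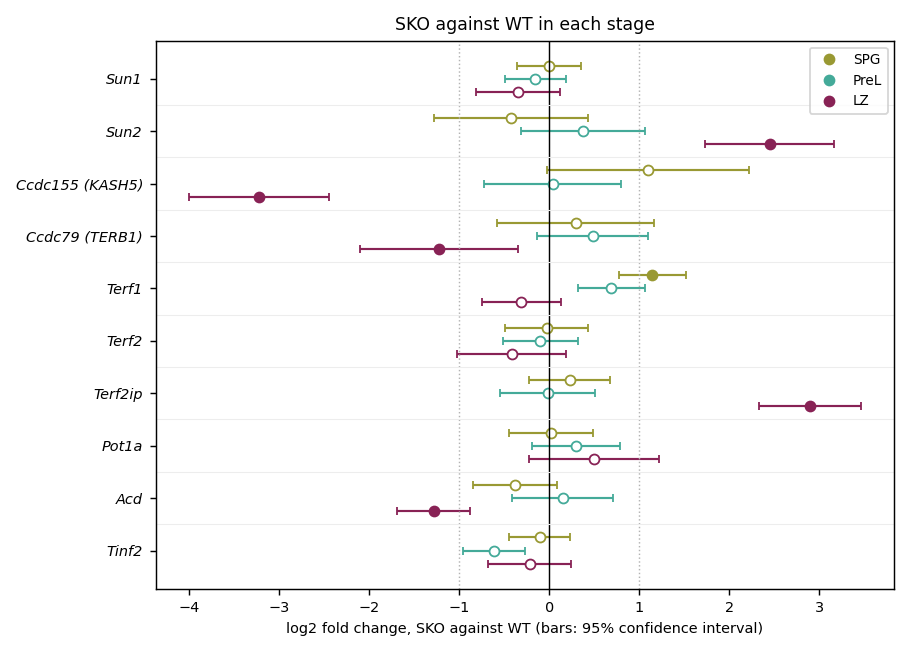
Horizontal axis, log2 fold change of SKO against WT for each member (limma on rescaled values) in SPG, PreL and LZ; bars are 95% confidence intervals, filled points passed adjusted p and fold thresholds, open points did not, and dotted lines mark the fold threshold. In LZ, 3 filled points lie to the left and 2 to the right, while in PreL no point is filled.

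Among the LINC genes, the KASH5 gene showed the largest drop of the members. Ccdc155 had 539 and 573 reads in WT LZ and 15, 33 and 20 reads in SKO LZ, or 39.0 and 41.9 RPM against 2.58, 4.34 and 2.89 RPM. The SKO LZ libraries lay near the WT SPG level (1.08 to 3.37 RPM). The log2 fold change was -3.22 (SE 0.33, adjusted p = 0.000206), with no overlap between genotypes. SUN2, the less abundant of the paired SUN proteins by RNA here, went up: Sun2 was at 6.22 and 3.07 RPM in WT LZ and at 18.2, 18.5 and 20.8 RPM in SKO LZ. It rose 5.47-fold (log2 fold change 2.45, SE 0.31, adjusted p = 0.000515), and its SKO LZ libraries were the highest of all 17. Its WT LZ values rest on 86 and 42 reads.

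Sun1, the main SUN gene of meiotic telomeres, was at 130 and 122 RPM in WT LZ and at 58.3, 83.7 and 90.5 RPM in SKO LZ. The libraries did not overlap in RPM, but on the values rescaled by median-of-ratios factors the log2 fold change was -0.35 (95% interval -0.81 to 0.12, adjusted p = 0.185) and was not called. The balance of SUN and KASH transcripts within a library therefore differed between the genotypes. The Sun2 to Sun1 ratio in RPKM was 0.0353 and 0.0673 in WT LZ and 0.310 to 0.438 in SKO LZ, after 0.0469 to 0.0752 in WT PreL and 0.0609 to 0.11 in SKO PreL. The Ccdc155 to Sun1 ratio was 0.966 and 1.10 in WT LZ and 0.103 to 0.166 in SKO LZ.

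The TERB1 gene was lower as well, with less certainty. Ccdc79, which encodes the TRF1-binding TERB1, was at 71.3 and 119 RPM in WT LZ and at 21.5, 30.2 and 42.4 RPM in SKO LZ. It fell by 1.23 on the log2 scale (SE 0.38, adjusted p = 0.0284). The call was lost without WT LZ replicate 3 (log2 fold change -0.67, adjusted p = 0.264, with a lone WT LZ library assumed to vary like SKO LZ), without SKO LZ replicate 1 (-1.04, adjusted p = 0.0965) and without SKO LZ replicate 2 (-1.16, adjusted p = 0.0808). The genes of its anchor partners differed from each other in size. Majin, which encodes the membrane-embedded subunit, was at 34.3 and 42.1 RPM in WT LZ and at 4.13, 7.75 and 8.80 RPM in SKO LZ, and it fell by 2.13 on the log2 scale (SE 0.37, adjusted p = 0.00252). Terb2, which links the other subunits, was at 62.9 and 70.5 RPM against 28.6, 43.0 and 46.3 RPM, with a log2 fold change of -0.41 (adjusted p = 0.199). From PreL to LZ within SKO, however, both genes were called lower (Terb2 -1.08, adjusted p = 0.0073, Majin -1.98, adjusted p = 0.00149). Neither was called over that step in WT (-0.03 and 0.04).

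Within shelterin, the RAP1 gene moved most. Terf2ip had 1098 and 1402 reads in WT LZ and 2933, 3842 and 3779 reads in the shallower SKO LZ libraries, or 79.4 and 103 RPM against 505, 505 and 546 RPM. Every SKO LZ library was above every other library of the series, whose highest value was 278 RPM. Terf2ip rose 7.44-fold (log2 fold change 2.90, SE 0.24, adjusted p = 9.1e-05). Per length it was the most abundant member in SKO LZ, at 105 ± 4.73 RPKM (SD, n = 3), with Terf1 next at 14.3 ± 1.96 RPKM.

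The TPP1 gene fell. Acd was at 77.6 and 63.1 RPM in WT LZ and at 20.1, 23.7 and 22.4 RPM in SKO LZ, with a log2 fold change of -1.29 (SE 0.17, adjusted p = 0.000746) and no overlap. The remaining shelterin genes were not called relative to the rest of the transcripts. Terf1 was at 104 and 107 RPM in WT and 55.6 to 72.7 RPM in SKO (log2 fold change -0.31, 95% interval -0.75 to 0.13), Terf2 had a log2 fold change of -0.42 (-1.02 to 0.19), and Tinf2 one of -0.22 (-0.68 to 0.25). Pot1a was at 37.9 and 15.5 RPM in WT and between 20.9 and 32.2 RPM in SKO (log2 fold change 0.50, -0.23 to 1.22), so a difference was not detectable with these libraries. Its paralog Pot1b, which in mouse shares the work of capping the single-stranded end, was at 16.2 and 23.9 RPM in WT and at 25.5, 39.9 and 33.5 RPM in SKO. It was called higher in SKO (log2 fold change 1.09, SE 0.31, adjusted p = 0.0209). From PreL to LZ, Pot1b was called lower in WT (-1.08, adjusted p = 0.0426). Within SKO its rise over that step (0.55, adjusted p = 0.0285) stayed under the fold threshold.

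As shares of the summed shelterin RPKM, RAP1 RNA made up most of the total in SKO LZ. Terf2ip made up 18.0% and 23.7% of shelterin RNA in WT LZ and 70.5% to 75.0% in SKO LZ, against 29.8% to 47.8% in WT PreL and 36.8% to 43.7% in SKO PreL. Acd went from 19.9% and 24.1% in WT LZ to between 4.08% and 4.51% in SKO LZ. Terf1 made up 25.3% and 26.7% in WT LZ and 8.88% to 10.9% in SKO LZ, whereas in SPG it had been the larger in SKO, with 15.6% to 23.5% against 8.43% to 10.5%. A share depends on the other 5 genes, and part of the drop of each share in SKO LZ is the gain of Terf2ip.

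**Figure D3:**
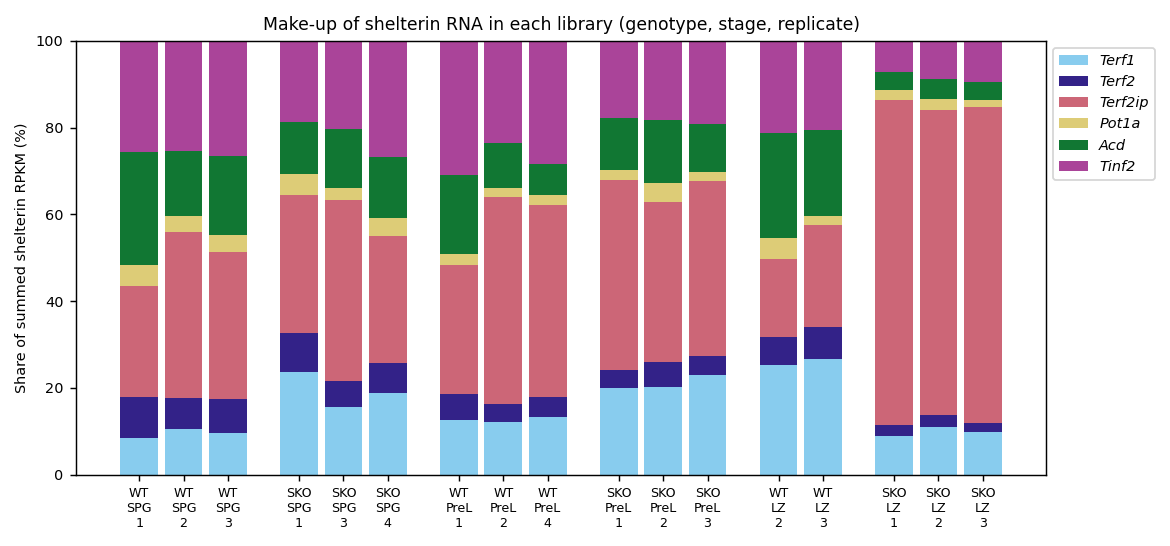
Stacked bars show, for each library (genotype, stage and replicate number on the horizontal axis), the share of each of the 6 shelterin genes in their summed RPKM (percent, 0 to 100). In the 3 SKO LZ libraries Terf2ip (rose) fills 70.5% to 75.0% of the bar, against 18.0% and 23.7% in WT LZ.

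The step from PreL to LZ could also be read within SKO, where it differed from WT for several members. Terf2ip, which fell over this step in WT, rose in SKO from 265, 197 and 251 RPM to 505, 505 and 546 RPM (log2 fold change 1.55, SE 0.18, adjusted p = 0.000266). Sun2 rose from 12.5, 11.1 and 7.91 RPM to 18.2, 18.5 and 20.8 RPM (1.29, SE 0.20, adjusted p = 0.00126). Ccdc79 fell by 1.28 (SE 0.32, adjusted p = 0.013), a call lost without SKO LZ replicate 1 (-1.10, adjusted p = 0.0619). Ccdc155 fell by 1.03 (SE 0.35, adjusted p = 0.0471), a call so near the thresholds that it held under only 6 of 17 alternatives. These 4 members of 10 stand beside 17.5% of all genes called (6.93% lower and 10.6% higher), and on the ERCC-calibrated scale 3 members were called higher and none lower. Acd had a log2 fold change of -0.87 (adjusted p = 0.000976) and Sun1 one of -0.66 (adjusted p = 0.0229), both under the fold threshold (-0.02 and 0.19 on the ERCC-calibrated scale), and by adjusted p alone 6 members passed, beside 36.9% of all genes.

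**Figure D4:**
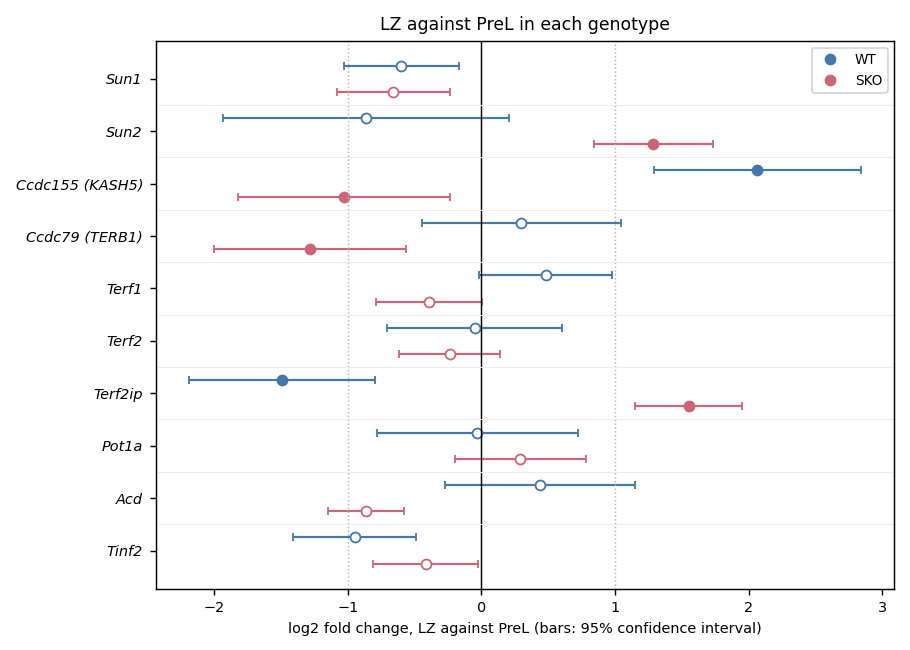
Horizontal axis, log2 fold change of LZ against PreL for each member, in WT (blue) and SKO (red); bars are 95% confidence intervals, filled points passed adjusted p and fold thresholds, and open points did not. Terf2ip lies at -1.49 in WT and 1.55 in SKO, and Ccdc155 at 2.06 in WT and -1.03 in SKO, while the intervals of Sun1 overlap.

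A test of the difference between the steps, the interaction of genotype with stage over all 17 libraries, was passed by 6 of 10 members at an adjusted p under 0.05, beside 38.1% of all genes tested (23.1% lower and 15.1% higher). The share of lower values among all called genes was 60.5%, and 89.8% on the ERCC-calibrated scale. Ccdc155, Ccdc79, Terf1 and Acd had the more negative step in SKO, and Terf2ip and Sun2 the more positive one. On the ERCC-calibrated scale 6 members were lower and 1 higher. Outside the members, Terb2 (-1.15, adjusted p = 0.00775) and Majin (-2.11, adjusted p = 0.00227) also passed as lower, and Pot1b (1.52, adjusted p = 0.0055) as higher. For the step from SPG to PreL, limma called an interaction for none of the 10 members, beside 0.362% of all genes; 1 member, Tinf2, had an unadjusted p under 0.05, beside 15.2% of all genes, and edgeR and DESeq2 called none. In SKO that earlier step raised Ccdc79 alone (log2 fold change 1.97, SE 0.45, adjusted p = 0.0357, beside 2.57% of all genes called), a call that held under 10 of 17 alternatives.

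The genes that work next to the members are read against the same shares of all genes in LZ (39.1% called, 25.8% lower and 13.4% higher). Of the LINC relatives tested, 3 of 5 were lower and none higher in SKO LZ. These were SUN proteins known from spermatids: Sun3 went from 28.2 and 32.4 RPM in WT LZ to 0.172, 0.131 and 0.433 RPM in SKO LZ (1, 1 and 3 reads), and Sun5 from 77 and 58 reads to 0 reads in all 3 SKO libraries, at least 33.3-fold lower against a floor of 3 reads over the group. Both were also called lower in SKO SPG (Sun3 -2.12, adjusted p = 0.0398, Sun5 -1.92, adjusted p = 0.0379). In SKO PreL, Sun3 was lower as well (-3.01, adjusted p = 0.0196), and Sun5 was not tested. Among 7 genes of the nuclear lamina and inner membrane, 1 was lower and 2 higher. Lmna, the A-type lamin, fell by 1.57 (SE 0.35, adjusted p = 0.00795) and Emd, the inner membrane protein emerin, rose (log2 fold change 1.32, SE 0.28, adjusted p = 0.00624).

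The kinase that acts at meiotic telomeres showed a drop in its activator. Spdya, which encodes the CDK2 partner Speedy A, was at 185 and 270 RPM in WT LZ and at 37.0, 47.4 and 60.8 RPM in SKO LZ (log2 fold change -1.86, SE 0.31, adjusted p = 0.00191), and Cdk2 itself was not called. Of 10 dynein and dynactin genes, 1 was called: the dynactin subunit gene Dctn2 fell by 2.04 (SE 0.29, adjusted p = 0.000936). Of 17 tested genes of telomerase, CST and other telomere proteins, 3 were lower and 3 higher. Dclre1b, which encodes the Apollo nuclease bound by TRF2, was at 16.1 and 15.0 RPM in WT LZ and at 61.2, 44.9 and 57.7 RPM in SKO LZ (log2 fold change 2.17, SE 0.25, adjusted p = 0.000382). Tep1, a protein found with telomerase RNA, fell by 2.03 (SE 0.40, adjusted p = 0.00417).

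**Figure D5:**
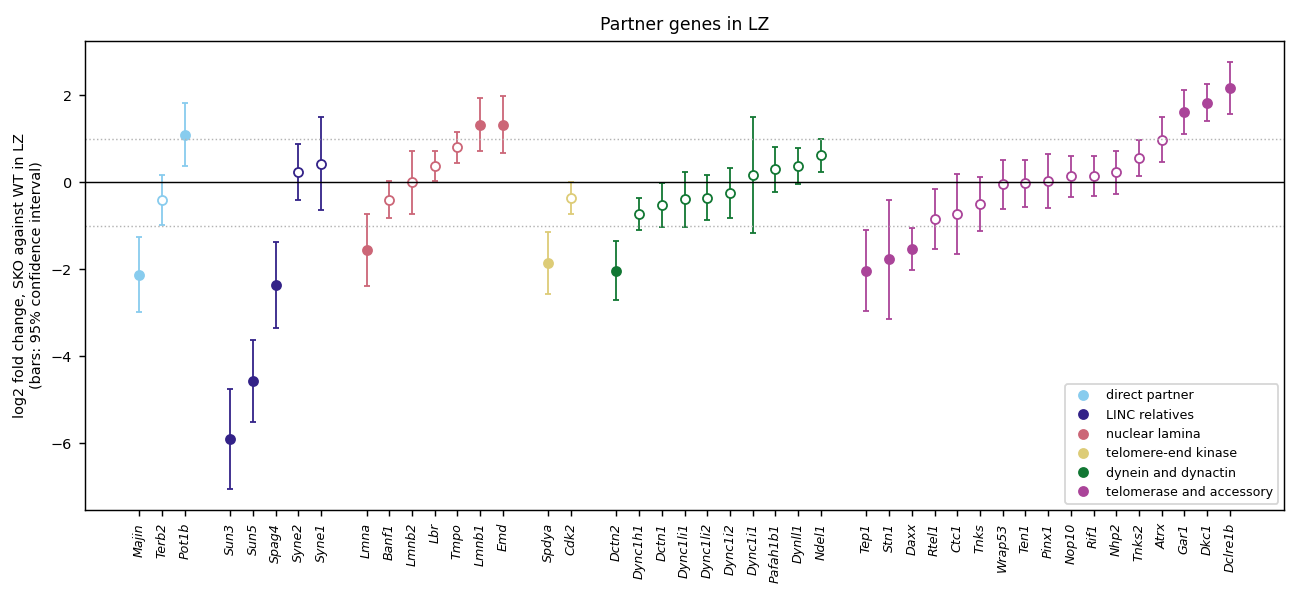
Vertical axis, log2 fold change of SKO against WT in LZ for genes that act with the members, grouped by list (colors) and ordered by value; bars are 95% confidence intervals, filled points passed adjusted p and fold thresholds, and dotted lines mark the fold threshold. LINC relatives reach the lowest values (Sun3, -5.91, with 1 to 3 reads in each SKO LZ library), and Dclre1b the highest (2.17).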

How the data were processed

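RNA was measured in 17 libraries made with Smart-seq2 from FACS-sorted cells, with ERCC spike-in RNA added. On mm10, the authors obtained counts per gene with HTSeq, scaled every library by its own factor (from spike-in and cell input) and deposited the resulting signal values. The submitters' processing notes also list the build mm9, whose role is not given in the sources used here, and name TopHat2 2.1.1, Cufflinks 2.2.1 and HTSeq 0.11.2. The deposited values of WT SPG replicate 1 are counts, its factor being 1. Whole reads were recovered for 100% of values (tolerance 0.0001), and 0 columns of further samples were present. The thresholds, an adjusted p under 0.05 with an absolute log2 fold change above 1, are those the authors used with DESeq2.

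For each comparison, values were rescaled by median-of-ratios factors, genes averaging fewer than 10 reads were dropped, and log2(value + 10) was tested with limma 3.58.1 (R 4.3.3, mean-variance trend, Benjamini-Hochberg over all genes, two-sided). Fold changes are on that scale, which understates changes of low genes. Interactions used all 17 libraries at an adjusted p under 0.05. The alternatives tried were the ERCC-calibrated values as they stand, TMM, pseudocounts of 1 and 50, other filters, edgeR 4.0.16 and DESeq2 1.42.0 on the recovered reads, a joint fit of the 17 libraries, blocking on replicate number, dropping the fold threshold, and leaving out each library. The fits of SKO against WT in PreL and in LZ, and of the interaction with LZ against PreL, were also run on simulated counts with planted changes. The outcome of those runs is not given here. Libraries of a group differed beyond sampling noise (chi-square 6.30 to 67.1 for each degree of freedom), and none were merged.

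The members, the lists of partner genes and markers, and the rules were chosen with earlier results of these data known. Members are named whatever their values; of partner lists, the 2 called genes with the largest change in LZ are named, beside Terb2 and Majin (listed under older symbols) and Pot1b. Syne3 and Rhox5 were not listed. Promoters came from RefSeq, which matched 9 of 10 members (not Terf1). Since no molecular identifiers were used, PCR copies count as separate reads, and the floor of 3 reads reflects counting error only.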

Additional observations from a re-analysis of the deposited data

Results flagged for a closer look

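For 6 members the change from PreL to LZ differed between SKO and WT by a test of the difference itself (limma interaction over all 17 libraries, adjusted p over all genes). Beside them, 38.1% of all genes tested passed the same test. The difference of log2 fold changes was 2.93 for Terf2ip (adjusted p = 7e-06), 2.03 for Sun2 (adjusted p = 0.00407), -3.17 for Ccdc155 (adjusted p = 0.000807), -1.68 for Ccdc79 (adjusted p = 0.0346), -1.41 for Acd (adjusted p = 0.00378) and -0.98 for Terf1 (adjusted p = 0.00483).

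Terf2ip, Ccdc155, Acd and Terf1 passed under all 20 alternatives. The values ranged from 2.07 to 3.29 for Terf2ip, -4.06 to -2.76 for Ccdc155, -2.28 to -1.14 for Acd and -1.85 to -0.78 for Terf1. The lowest value of each of these genes came from the ERCC-calibrated scale. There the median of all genes tested was -1.12, against -0.31 with rescaling. Sun2 passed under 19 alternatives and missed on the ERCC-calibrated scale (1.27, adjusted p = 0.0509). Ccdc79 passed under 13, and without WT LZ replicate 3 its value was -1.14 (adjusted p = 0.213). The late spermatocyte markers summed to 239 to 907 RPM in WT PreL and 2866 to 5335 RPM in WT LZ, against 5.42 to 10.1 RPM and 12.6 to 17.0 RPM in SKO, and their part in these differences was not tested.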

How the results depend on the processing

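The calls in LZ between genotypes were 3 lower and 2 higher under the ERCC-calibrated scale, TMM, both pseudocounts, both filters, edgeR and DESeq2; only leaving out a library removed one, Ccdc79. The scale decided most other shifts. On the ERCC-calibrated values without rescaling the number of called members was 0 in SPG (against 1), 4 in PreL (against 0), 7 for LZ against PreL in WT (against 2), 8 for PreL against SPG in SKO (against 1) and 5 for the interaction with PreL against SPG (against 0). Of 90 member values, 26 turned sign there, 19 of them called on neither scale. Of the other 7, for LZ against PreL in WT, Sun1 was 1.23, Terf2 1.76, Terf2ip 0.34 and Pot1a 1.77; Tinf2 was 1.01 for PreL against SPG in SKO; the interaction with PreL against SPG was 0.84 for Sun1 and 0.91 for Terf2. The median of all genes was 1.01 for PreL against SPG in SKO, 0.94 for that interaction and 1.86 for LZ against PreL in WT on that scale.

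With no fold threshold, 2 members were called in PreL, 2 for PreL against SPG in WT and 4 for LZ against PreL in WT. With a pseudocount of 50, with DESeq2 or in 1 fit of all libraries, Ccdc155 joined Ccdc79 for PreL against SPG in WT (2 called). For PreL against SPG in SKO, no filter, edgeR and the replicate block each gave 0. Leaving out a library gave 0 to 1 there, 1 to 3 for LZ against PreL in WT and 2 to 4 for LZ against PreL in SKO. Same-numbered libraries did not deviate together (r from -0.184 to 0.139 over 14 pairs). With 2 or 3 libraries in a group this cannot exclude pairing, and the main fits treated the libraries as unpaired. The replicate block could not be fitted for LZ against PreL in WT. Apart from PreL against SPG in SKO, the block kept the number of called members within 1.5 times. Sun2 and Ccdc155 rest on low counts, and comparisons with WT LZ have only 2 libraries on that side.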

Other observations

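The genes nearest to each called member across the 6 groups were found by the root mean square difference of centred group means of log2 values, among the 8666 genes that averaged 100 reads or more. They were Pih1d2 and Cdk20 for Ccdc155 (differences of 0.20 and 0.26, against a spread of 1.21 for Ccdc155 itself), Cbwd1 and Hfm1, a meiotic DNA helicase, for Ccdc79 (0.17 and 0.26, against 0.89), Itsn1 and Tmod3 for Terf2ip (0.13 and 0.13, against 0.89), Ddx19a and Glod4 for Sun2 (0.17 and 0.19, against 0.73) and Polr2c and Uck1 for Acd (0.05 and 0.08, against 0.40). These are descriptions over 6 groups of the same libraries.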
